A study of Mus musculus with 6 samples.

Results

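A set of 10 imprinted genes whose control region is methylated on the copy inherited from the mother was followed through the culture of dendritic cells from mouse bone marrow. The windows of the genome for Peg3, Snrpn, Kcnq1ot1, Mest, Peg10, Plagl1, Grb10, Zrsr1, Impact and Nnat were set by mm9 coordinates. That rule uses no measured level, but the members were chosen with earlier results of these data known. These windows are 10 of 132103 windows and 5 kb tiles into which the data were divided. Of these 10, 8 held cytosines in the deposited table, 139 cytosines in all out of 652716. The Peg3 window (chromosome 7 from 6678000 to 6686000) and the Peg10 window (chromosome 6 from 4695000 to 4700000) held 0 listed cytosines, so their methylation was not analysed here.

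Imprinted genes are transcribed mainly from 1 parental copy. At the loci described here the mark is laid down on the DNA of the growing egg, is absent from sperm DNA, and is kept on the maternal copy through the cell divisions of the body, blood cells included. The zinc finger protein Zfp57 binds the methylated hexamer TGCCGC at many such regions and, with Trim28, holds the methylation in place while the rest of the early embryo's genome loses it. DNA from a body tissue therefore carries a methylated and an unmethylated copy side by side, and a read comes from either. All animals were of the inbred strain C57BL/6J, in which the copies cannot be told apart by sequence, so the parental origin of a read was not measured.

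The method was reduced representation bisulfite sequencing, which reads cytosines near the cut sites of MspI or TaqI and converts unmethylated ones. Uncultured bone marrow (day 0, replicates 2 and 3) was compared with bone marrow cells kept for 4 days (day 4, replicates 1 and 2) or 7 days (day 7, replicates 1 and 4) in medium with Flt3L, the growth factor that drives dendritic cell formation, supplied as supernatant of transfected SP2/0 cells. The labels give every sample as male C57BL/6J and call the day 4 cells common myeloid progenitors and the day 7 cells bone marrow derived dendritic cells. Age is not given in the labels, all live cells were taken at both later times, and the assay reads no transcripts, so the cell types were not checked. The labels do not say if same-day samples are separate mice or cultures, so the spread behind each p-value may be technical. Reads at listed cytosines, summed, numbered 6736556 to 10242334 in 5 samples and 3641141 in day 7 replicate 4. The mean depth of X cytosines as a ratio to that of autosomal cytosines was 0.650 to 0.688 at day 0 and day 4 but 1.00 and 1.07 at day 7, so the day 7 libraries stood apart from the others under the same male label. All imprinted windows are autosomal, and the part of this difference in the results was not tested.

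Plagl1 encodes a zinc finger transcription factor that restrains cell division, and it is the window whose DNA letters could be placed beside the measured cytosines. Its 6 listed cytosines run from 12810440 to 12810603 on chromosome 10. Their spacing was laid over the CpG dinucleotides of all 32851 promoter entries of RefSeq (GRCm38.p6). All 6 fell on CpGs, at a single position, in the Plagl1 promoter and in that of Hymai, a transcript listed at the same place, and in 0 others. No coordinate was converted between builds. The 250 bases before the start of Plagl1 are shown with the 6 measured CpGs in capitals:
Plagl1: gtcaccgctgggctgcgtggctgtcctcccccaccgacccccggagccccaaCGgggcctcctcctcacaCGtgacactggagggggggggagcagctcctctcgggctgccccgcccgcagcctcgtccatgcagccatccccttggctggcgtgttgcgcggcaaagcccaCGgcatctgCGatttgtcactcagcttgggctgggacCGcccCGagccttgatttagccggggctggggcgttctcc
The measured CpGs lie between MspI sites (ccgg) that begin at bases 41 and 231 of this stretch, so they sit on 1 fragment of 190 bases. That fragment holds 13 CpGs in its interior, of which 6 were listed, 2 near its left end and 4 near its right end. The Zfp57 hexamer occurs once in the stretch, on the opposite strand as gcggca, beginning at base 161. The CpG within it was not listed, and the nearest measured CpG lies 12 bases from it.

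Promoter entries were found for 8 of the 10 genes (Peg3, Snrpn, Kcnq1ot1, Mest, Plagl1, Grb10, Zrsr1 and Nnat). The hexamer TGCCGC, searched on both strands in the 300 bases of each entry, occurred for 5 of them (Snrpn, Mest, Plagl1, Grb10 and Nnat). It was in 6 of the 14 entries of the 8 genes. Of all entries, 11.6% hold it, and of those with at least 10 CpGs, 22.5%. The 14 entries hold from 2 to 45 CpGs and were not split at that limit, so 22.5% covers an unlike set. Counted by gene, the share over all genes was 13.05%, and a gene with several entries, as Snrpn or Mest, has more chances. Except for Plagl1, the entries were not placed against the windows. The hexamer holds a CpG itself, and a match is no sign of binding. For names only, the RefSeq annotation places Kcnq1ot1 within Kcnq1, Zrsr1 within Commd1, Nnat within Blcap and Snrpn within Snhg14. Exon and intron positions on mm9 were not used here.

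All 8 windows had intermediate levels. The level of a window is the percent of its calls that were methylated, a call being 1 read at 1 cytosine. Averaged over the 6 samples, levels ran from 35.8% at Mest to 46.4% at Nnat, with a median of 40.0% over the 8 windows. Every window thus lay between 30% and 70%, where 15.4% of 59491 other autosomal tiles lay. Most tiles were either nearly unmethylated or above 70%, and the imprinted windows fell in the sparse range between.

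**Figure D1:**
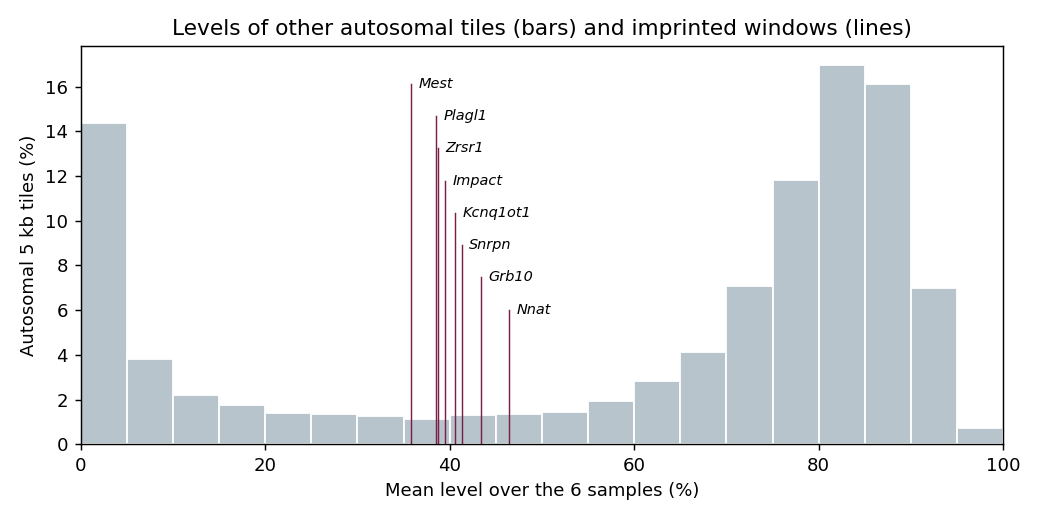
Bars give the percent of other autosomal 5 kb tiles (y) in each 5-point class of mean level over the 6 samples (x, %), and lines mark the 8 imprinted windows, with line heights chosen only to separate the names. All 8 lines lie between 35.8% and 46.4%, in the trough between the unmethylated and the methylated tiles.

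Pooled over samples, the intermediate level also held cytosine by cytosine. With all samples pooled, 134 of the 139 listed cytosines (96.4%) lay between 30% and 70%, against 11.6% of 641771 other autosomal cytosines. Of the remaining 5, 4 were below 30%, all at the right end of the Zrsr1 window, and 1 was above 70%, at the right end of Impact. Neighbouring cytosines share reads, so the 134 are not separate observations. Single samples could lie outside the range, as at the first Snrpn cytosine, 33.3% when pooled but 0% to 83.3% by sample. Of the 48 values of a window in a sample, 42 lay between 30% and 70%, and 39 lay below 50%. The share that stayed within 30% to 70% in each of the 6 samples was 3 of 8 windows (Kcnq1ot1, Zrsr1 and Nnat), against 4.88% of tiles. Snrpn, Mest, Plagl1, Grb10 and Impact each had at least 1 sample below 30%.

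**Figure D2:**
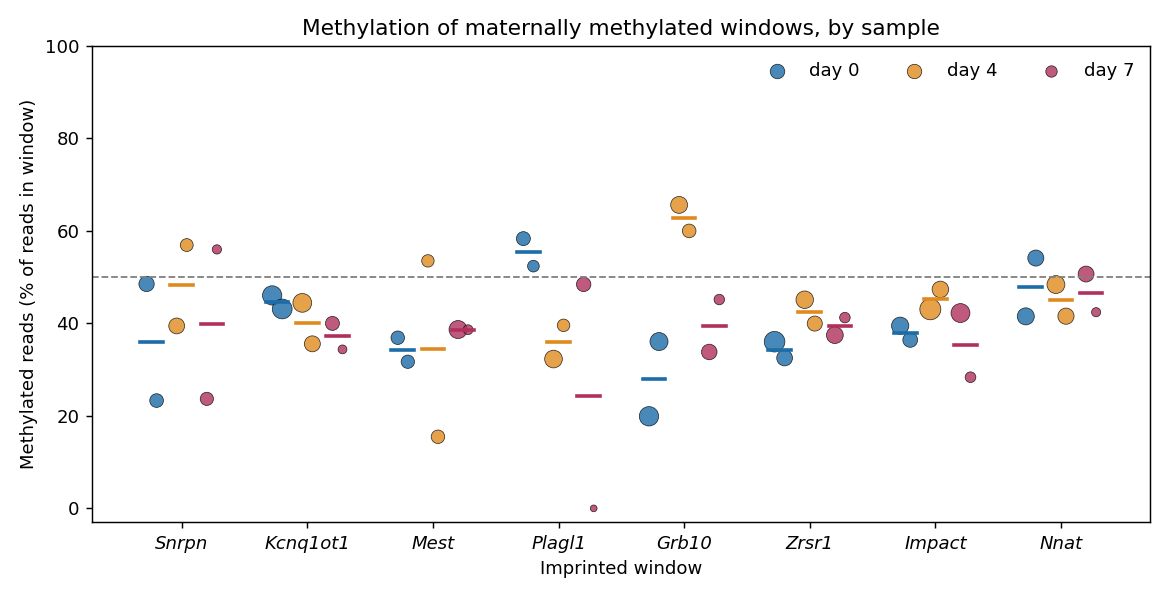
Each point is the level of a window (y, % of reads methylated) in 1 sample, its area scaled to the reads per cytosine, short bars give the mean of the 2 samples of a day, and the dashed line marks 50%. Kcnq1ot1, Zrsr1 and Nnat kept between 32.5% and 54.1% in every sample, while Grb10, Snrpn, Mest and Plagl1 were spread widely. The levels of Zrsr1 and Nnat average more than 1 run of cytosines. Parts of them ranged more widely, as from 19.7% to 52.9% by sample at the Zrsr1 run from 22872465.

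How far these values can be read depends on the number of DNA molecules behind them. A window of many cytosines gives many calls, but neighbouring cytosines share their reads. Calls per window and sample ran from 6 to 910, whereas reads per cytosine ran from 1 to 22.5. Day 7 replicate 4 had a median of 4.65 reads per cytosine over the windows. With every call taken as independent, 27 of the 48 exact 95% binomial intervals left out 50%, and with the reads per cytosine taken as the number of molecules, 2 did. The latter overstates the error where a window holds several separate fragments. Both cover counting error only.

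Kcnq1ot1, a long antisense RNA that silences neighbouring genes on the paternal copy, was among the steadiest windows. Its 8 cytosines (chromosome 7 from 150481407 to 150481515) stood at 46.1% and 43.1% before culture, 44.4% and 35.6% on day 4, then 40.0% and 34.4% on day 7. The day 4 samples overlapped those of day 0, and the day 7 samples lay below day 0. The group means were 44.6% ± 2.07, 40.0% ± 6.27 and 37.2% ± 3.98 (SD, n = 2 each). In day 0 replicate 2, each of the 8 cytosines was read 19 times, of which 8 or 9 reads were methylated.

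Zrsr1, a gene for a splicing factor of the U2af family that arose by retrotransposition, had the most cytosines, 42 of them over 2213 bp (chromosome 11 from 22871999 to 22874211). Its levels were 36.0% and 32.5% before culture, 45.1% and 40.0% on day 4, then 37.5% and 41.2% on day 7. The day 4 and day 7 samples lay above both day 0 samples and overlapped each other. Along the window, in bins of 500 bp, pooled levels stayed between 35.4% and 46.0% from 22871999 to 22873947. They were 16.1% over the last 4 cytosines, from 22874076 to 22874211. There the level was 15.8% and 22.6% before culture, 7.37% and 13.0% on day 4, then 18.5% and 47.4% on day 7, the last on 19 calls. The highest tested run of this window, from 22872884 to 22872992, stood at 50.7%, and the run with the most calls, from 22872465 to 22872749, at 42.0%. By sample, the run with the most calls ranged from 19.7% to 52.9%, more widely than the whole window.

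Nnat encodes neuronatin, a small membrane protein of brain and fat, and its window was the highest on average. Its 23 cytosines lie on chromosome 2 from 157385966 to 157387356. They stood at 41.5% and 54.1% before culture, 48.4% and 41.6% on day 4, then 50.7% and 42.4% on day 7, so the samples of each day overlapped those of the others. The left run of 15 cytosines was at 45.7% and the right run of 8 at 49.2%. By sample, the first 3 cytosines, from 157385966 to 157385984, ranged from 20.0% to 70.7%, more widely than the whole window.

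Impact encodes a regulator of the stress kinase Gcn2. On chromosome 18, its 23 cytosines from 13131728 to 13133233 stood at 39.5% and 36.4% before culture, 43.1% and 47.4% on day 4, then 42.2% and 28.4% on day 7. Both day 4 samples lay above the other 4 samples. The long run of 20 cytosines stood at 39.2% and the short run to its right, 3 cytosines from 13133074 to 13133233, at 61.0%.

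Snrpn encodes a splicing protein, and its start lies in the imprinting centre of the region linked to Prader-Willi syndrome in people. Its 17 cytosines (chromosome 7 from 67149738 to 67150085) stood at 48.5% and 23.3% before culture, 39.4% and 56.9% on day 4, then 23.7% and 56.0% on day 7. The 2 samples of each day thus lay far apart, and the days overlapped. The spread was widest in the leftmost run of 6 cytosines, which stood at 63.8% and 7.69% before culture, 27.8% and 67.4% on day 4, then 11.1% and 73.7% on day 7. At its first cytosine these levels rest on 3 to 12 reads a sample. The run of 11 cytosines to its right ranged from 30.6% to 52.5%.

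Mest encodes a protein of the hydrolase fold family made in mesoderm, and its window held 9 cytosines on chromosome 6 from 30685330 to 30686974. It stood at 36.9% and 31.7% before culture, 53.5% and 15.5% on day 4, then 38.7% and 38.6% on day 7. The day 4 samples lay on either side of the other 4. In day 4 replicate 2, the right 4 cytosines had 0 methylated calls among 32, with 8 reads at each cytosine.

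Plagl1, whose promoter is shown above, stood at 58.3% and 52.4% before culture, 32.3% and 39.6% on day 4, then 48.4% and 0% on day 7. Day 4 lay wholly below day 0. The 0% in day 7 replicate 4 rests on 1 read at each of the 6 cytosines, whose exact 95% interval reaches 97.5%. Without that sample the mean of the window was 46.2%, against 38.5% with it.

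Grb10, an adaptor protein that damps insulin and growth factor signalling, differed most between days. Its 11 cytosines lie within 165 bp on chromosome 11, from 11925642 to 11925806. The window stood at 19.9% and 36.1% before culture, 65.6% and 60.0% on day 4, then 33.8% and 45.2% on day 7. Both day 4 samples lay above all 4 others, and day 7 overlapped day 0. At each of the 11 cytosines day 4 lay wholly above day 0, but at single cytosines the day 7 samples overlapped day 4. These neighbours share reads, so the 11 are not separate observations. Of all windows and tiles tested, 34.4% had day 4 and day 0 apart in either direction, and the share of single cytosines was not computed. Over the first 10 cytosines, methylated reads were 4 or 5 of 20 in day 0 replicate 2, 4 to 8 of 17 in day 0 replicate 3, 8 to 11 of 15 in day 4 replicate 1, and 4 to 7 of 9 to 11 in day 4 replicate 2.

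**Figure D3:**
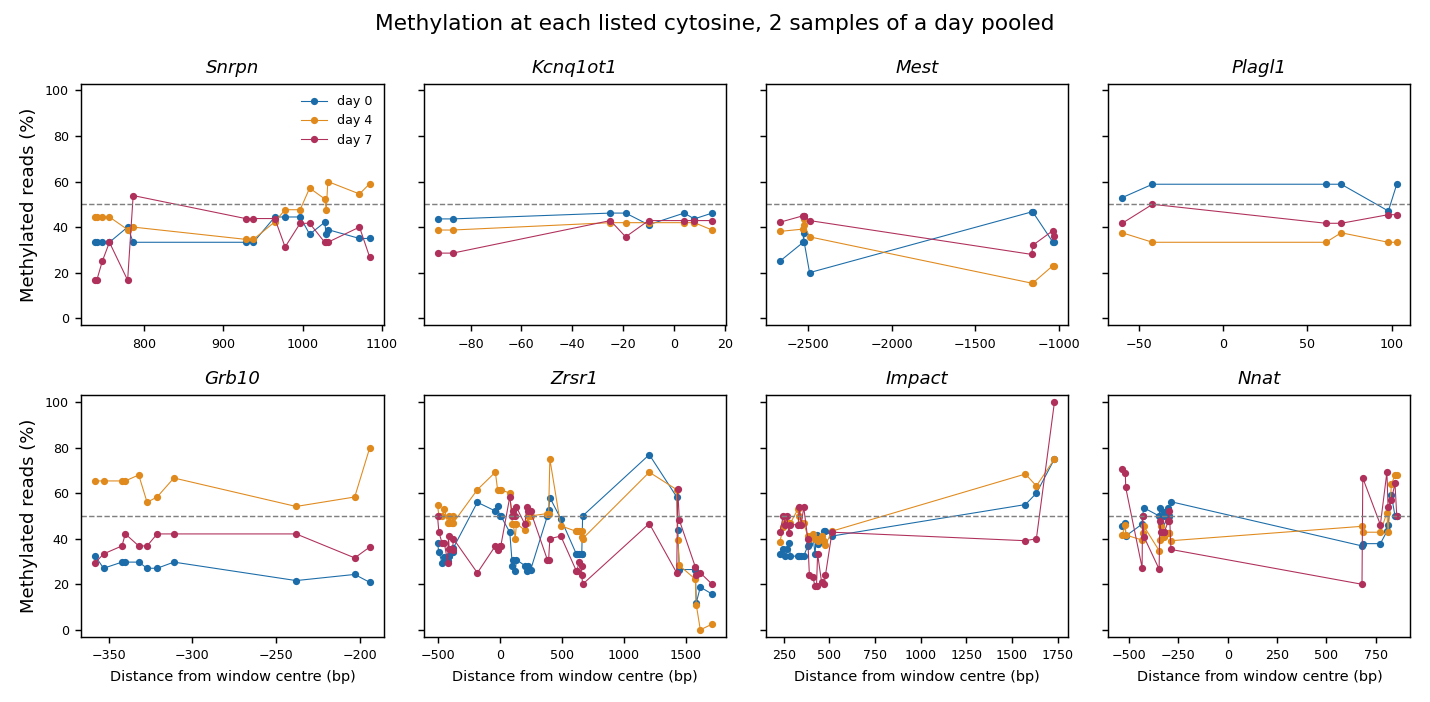
Each point is the level (y, %) of 1 listed cytosine, with the 2 samples of a day pooled, against its distance in bp from the centre of the window (x), and dashed lines mark 50%. The 11 cytosines of Grb10, which share reads, keep the order day 4 above day 0 throughout. Zrsr1 drops at its right end, to 16.1% over its last 4 cytosines.

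The first comparison, day 4 against day 0, set the early culture beside uncultured marrow. None of the 7 windows with at least 10 calls in every sample was called (edgeR likelihood ratio test, Benjamini-Hochberg adjusted p below 0.05 and a difference of at least 20 points), against 0.0182% of the 60371 windows and tiles tested. Grb10 came closest, with a mean of 28.0% ± 11.4 before culture and 62.8% ± 3.98 on day 4 (SD over 2 samples), a difference of 34.8 points (adjusted p = 0.0743, edgeR). It passed when only the 2 groups were fitted (adjusted p = 0.0411), where 0.0421% of units were called, and without day 7 replicate 1 (0.0356, with 0.0349% of units called) or replicate 4 (0.0363, with 0.0419%). With 1 cytosine counted for the whole window, an alternative added with the results in view because neighbours share reads, the adjusted p was 0.684 with a difference of 34.6 points. The quasi-likelihood test of edgeR gave an adjusted p of 0.849 and limma 1.0, where each called 0.0% of units, and over all alternatives the adjusted p lay between 0.0356 and 1.0. The difference was 26.7 points without day 0 replicate 2 and 42.9 without day 0 replicate 3.

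At an unadjusted p below 0.05 stood 1 of 7 windows, Grb10, against 6.8% of units. Zrsr1 differed by 8.26 points (adjusted p = 0.863, edgeR) and Impact by 7.24 (0.909), and Grb10, Zrsr1 and Impact were the 3 of 7 tested windows whose day 4 samples both lay beyond both day 0 samples. Of all units, 34.4% had the groups apart in either direction. Plagl1 was too thinly read for the test at 10 calls. With the minimum set at 5, its means were 55.4% ± 4.21 before culture and 35.9% ± 5.16 on day 4. The difference was -19.4 points (unadjusted p = 0.0385, adjusted p = 0.696, edgeR). Plagl1 and Grb10 were then 2 of 8 windows at an unadjusted p below 0.05. The share over all units at that minimum is not given here. Among runs of at least 3 cytosines no more than 100 bp apart, 0 of 15 inside the windows were called, against 0.00178% of 56099 runs, and 2 had an unadjusted p below 0.05 (Grb10 and the Zrsr1 run from 22872465), against 6.6%.

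The second comparison, day 7 against day 4, set both stages of the culture side by side. Again 0 of 7 windows and 0 of 15 runs were called (edgeR), against 0.404% of windows and tiles and 0.451% of runs. The quasi-likelihood test called 0 windows, against 0.255% of units, and limma 0, against 0.0248%. The mean of Grb10 on day 7 was 39.5% ± 8.02, a difference of -23.3 points (adjusted p = 0.263, edgeR). It was the 1 window of 7 with an unadjusted p below 0.05, against 9.83% of units. Grb10 and Impact were the 2 windows whose day 7 samples were both under day 4, and 36.2% of units had groups apart in either direction. Impact had means of 45.2% ± 3.04 and 35.3% ± 9.82, a difference of -9.90 points, or -2.96 points without day 7 replicate 4. The run at the right end of Zrsr1 was higher by 22.7 points (adjusted p = 0.306, edgeR), and by 8.26 points without day 7 replicate 4, which had 19 calls there. It and Grb10 were the 2 runs of 15 with an unadjusted p below 0.05, against 11.4%.

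The comparison of day 7 against day 0 spans the whole route from marrow to dendritic cell culture. Here 0 of 7 windows and 0 of 15 runs were called (edgeR), against 0.484% of windows and tiles and 0.497% of runs, and 0 windows and 0 runs had an unadjusted p below 0.05, against 12.2% and 12.9%. Grb10 differed by 11.5 points (adjusted p = 0.603, edgeR), which became 3.43 without day 0 replicate 2, 19.6 without day 0 replicate 3 and 5.84 without day 7 replicate 4. Kcnq1ot1 differed by -7.40 points (0.80), or -4.59 to -10.2 with a sample left out. The other 5 tested windows differed by between -2.66 and 5.07 points, but with 1 cytosine counted per window Nnat differed by -27.7 points (adjusted p = 0.733, edgeR). Plagl1, with the minimum set at 5 calls, differed by -31.1 points (adjusted p = 0.637, edgeR), and by -6.92 without day 7 replicate 4, where it rests on 1 read per cytosine. Zrsr1 and Mest had both day 7 samples above both day 0 samples and Kcnq1ot1 had both below, 3 of 7 windows against 39.7% of units. The quasi-likelihood test and limma also called 0 windows here, against 0.253% and 0.0331% of units. With 2 samples a day and few molecules per window, a p above the threshold does not show that a level stayed the same.

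The SD of a window over the 6 samples had a median of 9.45 points over the 8 windows (4.38 at Zrsr1 to 21.0 at Plagl1), and 8.89 points over the 9170 other autosomal tiles with a mean between 30% and 70%. These sets differ in depth, with a median of 152 calls per sample in the windows and 52 in the tiles. With each call independent, counting error alone would give a median of 4.32 points in the windows and 7.43 in the tiles. With the reads per cytosine as the number of molecules it would give 15.5 points in the windows. The observed SD of the windows was above the value for independent calls in 7 of 8 windows and above that for molecules in 1, Grb10. Leaving out day 7 replicate 4 gave a median SD of 7.97 points.

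Levels beside the windows could be read only in part. Of the 20 flanks of 20 kb, 11 held at least 4 listed cytosines and 4 held 0. The 11 leave out Snrpn, Kcnq1ot1 and Plagl1 altogether, and 3 of them flank Peg3 and Peg10. The nearest listed cytosine was often several kb away, as at the left flank of Grb10 (12073 bp). Pooled over samples, 7 of the 11 were above 70%, 3 were below 20%, and 1, to the right of Impact, was at 61.7% (46.7% to 82.0% by sample). Nnat lay between both kinds, with 81.6% on its left, where the nearest listed cytosine is 138 bp from the window, and 5.64% on its right. Grb10 also had a methylated left flank (77.2%) and an unmethylated right flank (6.31%), and the right flank of Zrsr1 was at 12.6%. Both flanks of Mest were methylated, at 85.5% and 80.2%. Among the 5 flanks with 1 or 2 cytosines, 3 were intermediate, Kcnq1ot1 right (57.1%), Peg3 right (51.6%) and Zrsr1 left (63.6%). Around the windows that held 0 cytosines, flanks were at 87.3% to the left of Peg3, and 76.1% and 84.1% to the left and right of Peg10.

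**Figure D4:**
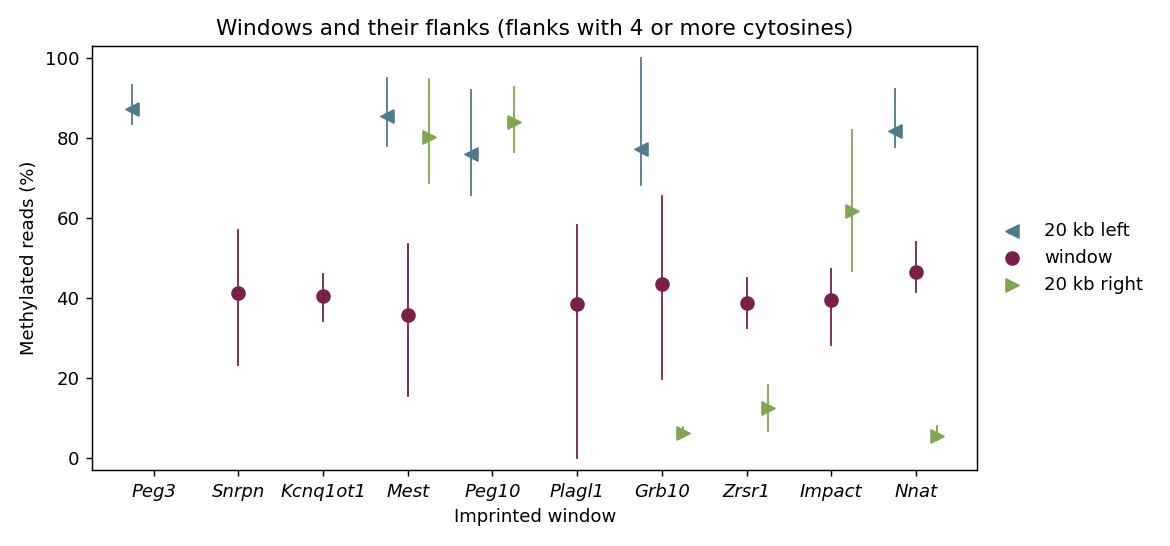
Circles give the mean level of each window over the 6 samples (y, %), triangles the pooled level of the 20 kb on its left and right where at least 4 cytosines are listed, and vertical lines the range over samples. The flanks drawn sit above 70% or below 20% except to the right of Impact (61.7%), while windows sit between 35.8% and 46.4%.

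A feature that the coordinate rule for the windows did not use was how alike neighbouring cytosines were. For neighbours within a run that had the same number of reads in a sample, at least 5, the squared difference of their methylated reads was summed and divided by the sum that independent calls at the run's level would give. A value of 1 means that neighbours differ as much as independent calls at 1 shared level do, and a value near 0 that they carry nearly the same count. Neighbours whose own levels differ also raise the value, and this part was not separated. This measure was chosen after the data were seen. Of the runs inside the windows 11 had at least 10 such pairs and a level between 30% and 70%, and their values ran from 0.0410 (Zrsr1, from 22873117) to 0.344 (Snrpn, from 67149738), with a median of 0.0957. Over 2182 other autosomal runs chosen by the same limits the median was 1.36, and 5% of them lay at or below 0.297. The number of cytosines in a run and the distance between neighbours were not matched between these sets.

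At Kcnq1ot1 the value was 0.0477, and 3 of the 2182 other runs (0.137%) were as low. At the right 4 cytosines of Plagl1 it was 0.0882 (8 other runs as low), at the long run of Impact 0.0902 (9), at Grb10 0.168 (39), and at the left and right runs of Nnat 0.140 (27) and 0.161 (34). The leftmost run of Snrpn was the least alike, with 142 other runs (6.51%) at or below it. Methylated counts were equal in 247 of 431 member pairs (57.3%), against 18.5% of pairs in the other runs. How often counts are equal also depends on the reads per pair, which were not matched between these sets. The reads themselves were not analysed here, so equal counts do not show that the same reads were methylated throughout. Pairs are not independent, and no test was made.

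**Figure D5:**
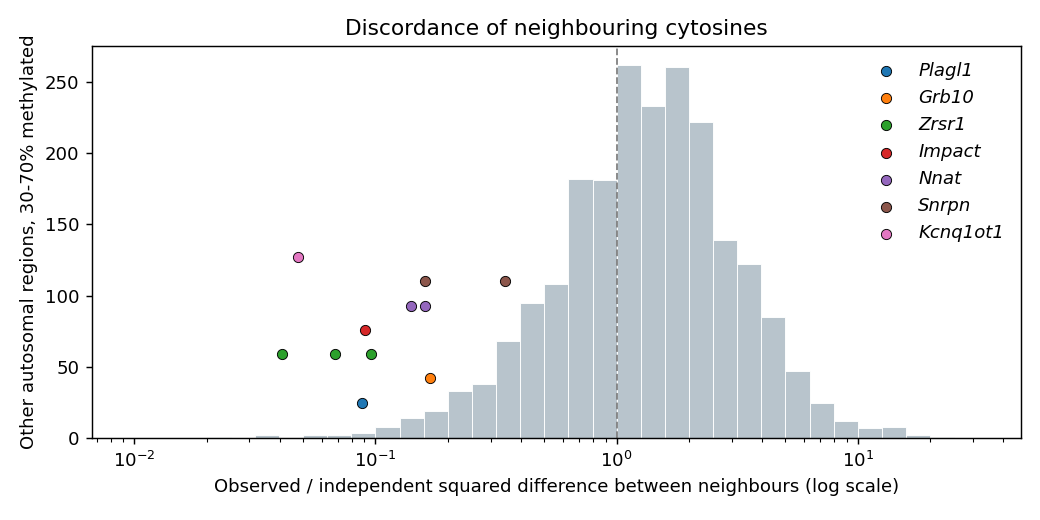
Bars count other autosomal runs of 30% to 70% methylation (y) by the ratio of observed to independent squared differences between neighbouring cytosines (x, log scale), and points mark the 11 runs of imprinted windows, at heights that only separate the genes. All 11 points lie between 0.0410 and 0.344, left of the median of 1.36 of the other runs.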

How the data were processed

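DNA methylation was measured in 6 samples, 2 at each of 3 times. Per the submitters' processing notes, Bismark and Bowtie2 were used on mm9; their versions, trimming and duplicate handling were not given in the sources used here. A deposited table gives unmethylated and methylated read counts per cytosine and a methylated fraction, which served only to check the counts. Each listed cytosine has at least 10 reads summed over each group. From the counts, calls were summed over the imprinted windows, over 5 kb tiles of the rest, and over runs of at least 3 cytosines at most 100 bp apart. Testing used edgeR 4.0.16 (R 4.3.3) on units with 10 or more calls in each sample: a joint negative binomial fit to both kinds of counts, with sample and group terms, all 6 samples, dispersion without trend, likelihood ratio tests, Benjamini-Hochberg adjustment over all units. Calls at neighbouring cytosines share reads, so a unit's calls exceed its molecules, and p-values of windows with many cytosines may be too small. Alternatives included the quasi-likelihood test, limma 3.58.1 with a pseudocount of 0.5, other minimums and each sample left out. All 10 genes are named, and within a window the run with most calls, the lowest, the highest and any called. Levels and flanks are descriptions. The members and lists were chosen with earlier results of these data known. Other imprinted loci were planned only with mm9 gene positions and were not run.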

Additional observations from a re-analysis of the deposited data

How the results depend on the processing

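The count of called windows was 0 in each comparison and stayed 0 under the alternatives run, except for day 4 against day 0, where it was 1 (Grb10) with only the 2 groups compared and ranged from 0 to 1 with a sample left out. The count of called runs was 0 throughout. Of 351 alternative values of the 21 window differences, 328 kept their direction and their side of the threshold, 3 (Grb10) passed it, and 20 changed sign, with adjusted p of 0.673 to 1.0 (edgeR). Many of these 351 values could not change sign, because the difference is one of group mean levels. That holds for other tests, minimum differences and read minimums per unit, for autosomes alone and for only the 2 groups. It also holds where the sample left out was of a day not compared. The 328 therefore overstate how firmly the directions held. With only cytosines of at least 5 reads in each sample, Mest was at -15.8 points for day 4 against day 0, and at -9.0 when day 7 was set against day 0. With 1 cytosine per window, Mest was at -3.93 for day 4 against day 0, while Nnat stood at -20.6 for day 7 against day 4. With a sample left out, differences that changed sign ranged, for day 4 against day 0, from -9.14 to 3.46 at Nnat, -18.8 to 19.2 at Mest and -0.332 to 24.9 at Snrpn. For day 7 against day 4 they ranged from -2.56 to 5.69 at Nnat, -14.9 to 23.2 at Mest, -24.5 to 7.80 at Snrpn and -7.26 to 1.61 at Kcnq1ot1. For day 7 against day 0 they ranged from -9.60 to 4.28 at Impact, -7.58 to 5.03 at Nnat and -12.2 to 20.1 at Snrpn. The cause was not tested. The median level of 40.0% was 41.8% without day 7 replicate 4. The share of other tiles called intermediate by their mean was 10.0% for 35% to 65% and 37.1% for 20% to 80%. The values for neighbouring cytosines kept a median of 0.0916 to 0.0970 under the 3 added settings, but with pairs of at least 8 reads the highest was 0.533, and 12.2% of other runs were at or below it. No paired analysis was possible because any 2 days share at most 1 replicate number. Depth is 1 limit among several: reads per cytosine ran from 1 to 22.5, and neighbouring cytosines add few molecules.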

Other observations

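Runs elsewhere on the autosomes whose neighbouring cytosines were most alike, at a level between 30% and 70%, are given by mm9 position only, and were chosen after the data were seen. On chromosome 15, the 4 cytosines from 72641099 to 72641151 had the lowest ratio of observed to independent squared differences, 0.0244, at a pooled level of 40.7% (20.7% to 52.0% by sample). On chromosome 1, the run from 63313057 to 63313084 followed, with 0.0330 and a level of 34.9% (16.7% to 52.9% by sample). Among the 10 lowest of 2182, chromosome 2 held both the run from 174125913 to 174125970 (0.0610, at 36.1%) and the 18 cytosines from 174154084 to 174154272 (0.0726, at 39.7%). By sample these ranged from 22.2% to 46.3% and from 27.55% to 45.4%. Chromosome 7 held the run from 149766835 to 149766976 (0.0935, at 42.0%, with 8.33% to 51.9% by sample). The other 5 of the 10 lowest had higher levels, from 54.8% (chromosome 8 from 35160308 to 35160344, with the ratio 0.0340) to 67.2%. By sample, the chromosome 8 run ranged from 20.0% to 78.0%. No mm9 gene annotation was used, so none of these runs was assigned to a gene.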
